A study of Arabidopsis thaliana with 24 samples.

Results

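The 10 genes described here are the YUC (YUCCA) genes YUC1, YUC2, YUC3, YUC4, YUC5, YUC6, YUC8 and YUC9 and the aminotransferase genes TAA1 and TAR2 of Arabidopsis thaliana, taken by locus from a table of 33020 loci. RNA was measured in whole seedlings, 6 days old and grown in white light, of which one set was given 1 hr of shade (R/FR of 0.4, that is, red light weaker than far-red) and the other was kept in white light as its control. Each light treatment was applied to pif7, asf1ab and hira mutants and to WT, which was Col-0, and each of the 8 combinations has 3 libraries. In this text a "shaded" group had the 1 hr of shade and a "white-light" group did not. The labels name neither the mutant alleles nor separate cultures behind the replicates, so the p-values measure the spread between these libraries, which may be technical.

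Auxin (indole-3-acetic acid) is made from tryptophan in a short pathway. TAA1 and its relative TAR2 are aminotransferases that turn tryptophan into indole-3-pyruvate, and the YUC proteins are flavin monooxygenases that turn indole-3-pyruvate into auxin, a step generally regarded as rate-limiting. Plants that sense a low ratio of red to far-red light elongate their stems and petioles, and newly made auxin is known to be needed for that growth. PIF7 is a basic helix-loop-helix transcription factor that is activated by shade, and factors of its family bind the G-box (CACGTG) and the PBE-box (CACATG). ASF1A and ASF1B are histone chaperones for H3 and H4, and HIRA is a chaperone that deposits the histone variant H3.3.

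The stretches of DNA upstream of YUC9, YUC8 and YUC5 are shown first, because these members hold G-boxes there. They also have the largest ratios of shade to white light in WT, though the YUC9 and YUC5 ratios rest on few reads in white light. That order depends on the measure and the genotype. By the log2 change in WT given below, YUC2, with no G-box found, rose more than YUC5 (1.65 against 1.26). In hira the ratio of YUC3, also with no G-box found, was 5.34, against 5.31 for YUC5. The stretches were read from the TAIR10.1 assembly of RefSeq with its own annotation, on the strand of each gene, and the capitals mark each G-box. The YUC8 stretch is chr4:14192055-14192156 on the plus strand, the YUC9 stretch is chr1:1103333-1103430 on the plus strand and the YUC5 stretch is chr5:17651739-17651804 on the minus strand.
YUC8: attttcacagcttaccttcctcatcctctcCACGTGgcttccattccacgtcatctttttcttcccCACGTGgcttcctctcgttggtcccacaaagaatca
YUC9: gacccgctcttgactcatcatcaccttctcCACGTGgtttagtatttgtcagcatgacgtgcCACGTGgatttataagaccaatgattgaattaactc
YUC5: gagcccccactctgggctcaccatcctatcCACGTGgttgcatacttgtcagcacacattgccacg

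The G-box CACGTG, which reads the same on both strands, was found within 2000 bases of the annotated gene start in 3 of the 10 genes. YUC8 held a pair, starting 484 and 448 bases before its start, so that the first bases of the boxes were 36 apart. YUC9 held a pair at 1130 and 1098 bases, 32 apart, and YUC5 a single box at 1399 bases. Among 27440 windows of this length before annotated genes, 23.8% held a G-box, 5.48% held at least 2, and 1.77% held 2 whose first bases were at most 40 apart. All 5 boxes of the 3 genes had a C before and a G after the motif, reading CCACGTGG, as 8.0% of the 8514 G-boxes in all windows did. The 20 bases after each box were compared between all pairs of the 5 boxes. The most alike were those after the YUC5 box and the first YUC9 box, identical at 14 positions. Of these, 9 lay in a row, ttgtcagca, from base 10 after the box. The stretch of YUC5 matched those after the 2 YUC8 boxes at 4 and 8 positions and that after the second YUC9 box at 7. The 2 YUC8 boxes matched each other at 10, with gcttcc in a row. How often other G-boxes match this well was not tested.

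The PBE-box, CACATG on one strand and CATGTG on the other, was found within 100 bases of the start in YUC8, YUC9 and YUC2, and such a box stood in 4.4% of 27443 windows of 100 bases. The last 100 bases before these 3 starts are shown with the box in capitals, since these are also the 3 genes with the highest levels in shaded WT among the 8 YUC genes. They are chr4:14192469-14192568 on the plus strand for YUC8, chr1:1104393-1104492 on the plus strand for YUC9 and chr4:7724071-7724170 on the minus strand for YUC2.
YUC8: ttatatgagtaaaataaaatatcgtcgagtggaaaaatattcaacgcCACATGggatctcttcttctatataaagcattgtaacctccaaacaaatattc
YUC9: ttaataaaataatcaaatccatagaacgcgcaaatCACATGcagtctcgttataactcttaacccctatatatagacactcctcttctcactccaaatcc
YUC2: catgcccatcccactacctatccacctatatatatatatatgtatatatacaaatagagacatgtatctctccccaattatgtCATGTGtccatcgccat

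The box began 53 bases before the start of YUC8, 65 bases before that of YUC9 and 17 bases before that of YUC2. Within 2000 bases a PBE-box stood in 61.0% of all windows, and further ones lay at 1955 bases in YUC8, 1776 bases in YUC9 and 478 bases in YUC6. A match describes letters in a window of DNA, and no binding was measured in these data. The motifs and windows were chosen with the expression results known.

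**Figure D1:**
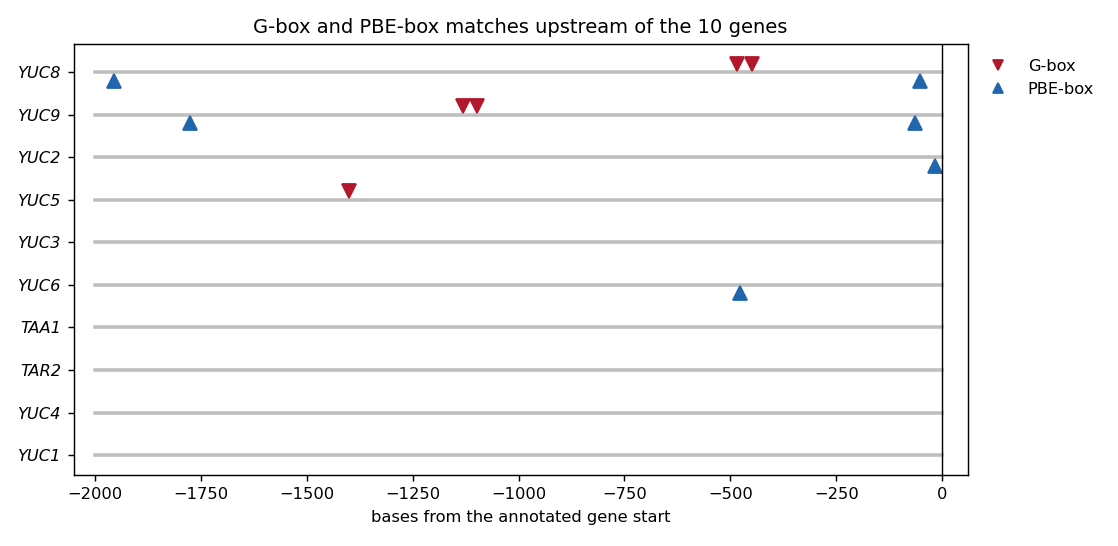
Positions of G-box (CACGTG) and PBE-box (CACATG or CATGTG) matches, in bases from the annotated gene start, in the 2000 bases upstream of each of the 10 genes. YUC8 and YUC9 each hold a pair of G-boxes, at 484 and 448 and at 1130 and 1098 bases, and YUC8, YUC9 and YUC2 hold a PBE-box within 100 bases of the start.

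The genes lie on chromosomes 1, 4 and 5. TAA1 (AT1G70560) spans 26604855 to 26607652, YUC9 (AT1G04180) 1104493 to 1106241 and YUC3 (AT1G04610) 1279351 to 1281618 on chromosome 1. On chromosome 4, YUC8 (AT4G28720) spans 14192569 to 14194302, YUC2 (AT4G13260) 7721487 to 7724070, YUC1 (AT4G32540) 15700829 to 15703000 and TAR2 (AT4G24670) 12727531 to 12731331. On chromosome 5, YUC5 (AT5G43890) spans 17648576 to 17650375, YUC6 (AT5G25620) 8934941 to 8938768 and YUC4 (AT5G11320) 3611247 to 3613640. YUC8 and YUC5 are annotated with a single exon. No member overlapped another annotated gene, and none of the 50-base stretches of their exons occurred elsewhere in the assembly, so reads of that length belong to 1 gene.

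Values are FPKM, by definition fragment counts scaled by gene length and library size. Levels of different genes are set side by side on that definition, though the sources used here do not tell how the values were made. Differences are in log2(FPKM + 1) with their standard error (SE), and a gene is called where limma's moderated test gave an adjusted p below 0.05, Benjamini-Hochberg over the 19126 genes with a mean of at least 1 FPKM. Of the 10 genes, 7 passed that filter. YUC1, YUC3 and YUC4 did not, with means of 0.197, 0.934 and 0.41 FPKM over the 24 libraries, so a count over the 7 is not a count over the family. YUC5, YUC8 and YUC9 passed only through their shaded groups, since none of their 4 white-light group means reached 1 FPKM. A count of called genes that holds them is therefore partly set by the filter and supports nothing about the family. Of the related genes outside the 10, YUC7, YUC10, YUC11 and TAR1 read between 0 and 0.04 FPKM in every library. AT1G34040 and AT1G34060, annotated as pyridoxal phosphate-dependent transferases like the aminotransferases, read 0.23 to 2.02 and 0.69 to 3.77 FPKM. AT1G34060 was tested, at 1.38, 1.28 and 1.38 FPKM in shaded WT, against 2.59, 2.83 and 3.04 FPKM in white-light WT (-0.70, SE 0.267, adjusted p = 0.0593), and its change with shade in pif7 was -0.69 (SE 0.267, adjusted p = 0.0441).

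PIF7 averaged 0.653 ± 0.205 FPKM in shaded pif7 and 12.4 ± 1.75 in shaded WT, and ASF1B averaged 1.82 ± 0.0907 FPKM in asf1ab and 10.5 ± 1.9 in WT, both shaded (SD, n = 3 each). ASF1A averaged 14.8 FPKM in asf1ab and 12.6 in WT in shade (0.21, adjusted p = 0.135), and 9.56 FPKM in asf1ab and 12.9 in WT in white light (-0.40, adjusted p = 0.00642). HIRA averaged 4.57 FPKM in hira and 4.84 in WT in shade (-0.07, adjusted p = 0.666), and 3.91 FPKM in hira and 4.88 in WT in white light (-0.26, adjusted p = 0.0664). Neither gene was near 0 in its mutant, so these levels are a weak check of the labels. White-light hira replicates 1 and 2 stood apart, with 8.32% and 7.27% of summed FPKM in ribosomal RNA loci, whereas the other 22 libraries had at most 3.22%. Each hira result is therefore also given without them where its call changes. Summed FPKM of 5 root markers was 47.1 to 54.2 in shaded WT and 56.2 to 66.0 in white-light WT, and 23.1 to 49.8 over the 18 mutant libraries. That of 3 seed markers, CRA1, OLEO1 and EM6, was 107 to 193 in shaded asf1ab, 26.2 to 30.1 in shaded pif7, 21.7 to 38.6 in shaded hira and 6.77 to 9.36 in shaded WT. In white light it was 35.3 to 129 in asf1ab, 1.44 to 8.25 in pif7, 8.78 to 16.0 in hira and 0.85 to 3.21 in WT. The part of these tissues in the values below was not tested. In whole seedlings, fewer cells of a type and less RNA per cell cannot be told apart.

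The first comparison is that of shade with white light in WT. All 7 tested genes were called, against 26.4% of all tested genes, with 4 higher and 3 lower, against 14.9% and 11.4% of all tested genes. Of the 4 higher genes, 3 (YUC5, YUC8 and YUC9) had entered the test only through their shaded groups. The YUC genes YUC8, YUC9, YUC2 and YUC5 rose, whereas YUC6 and both aminotransferase genes fell. The shaded and white-light libraries did not overlap for 8 of the 10 genes, as was also so for 41% of all tested genes. Here and below, the 10 include YUC1, YUC3 and YUC4, which are not among the tested genes that such shares are taken over.

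TAA1, which encodes the main aminotransferase of the pathway, read 2.03, 2.03 and 1.48 FPKM in shaded WT, against 6.47, 7.71 and 8.0 FPKM in white-light WT. Every shaded library was below every white-light library, and the ratio of the mean in shade to that in white light was 0.25. TAA1 fell by 1.56 on the log2 scale (SE 0.167, adjusted p = 6.7e-07). TAR2 read 4.77, 6.0 and 4.22 FPKM in shaded WT, against 7.79, 6.71 and 6.53 FPKM in white-light WT. The groups again did not overlap, with a smaller gap, and TAR2 fell by 0.43 (SE 0.144, adjusted p = 0.034). That call was lost without the filter on low genes (adjusted p = 0.051), in a fit of the WT libraries alone (0.0665), and without shaded WT replicate 1 or 3 or white-light WT replicate 1 or 2 (up to 0.153), in a range of 0.0111 to 0.153 over all alternatives.

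YUC8, the YUC gene with the highest level in shade, read 42.59, 34.39 and 37.7 FPKM in shaded WT, against 1.25, 0.78 and 0.7 FPKM in white-light WT. The lowest shaded library was far above the highest white-light library, and the ratio of the means was 42.0 (log2 change 4.37, adjusted p = 4.72e-13). YUC9 read 15.61, 15.13 and 17.48 FPKM in shaded WT, against 0.09, 0.44 and 0.32 FPKM in white-light WT. The ratio of the means was 56.7 (log2 change 3.74, adjusted p = 6.08e-14), but it rests on few reads in white light, since 1 read of YUC9 was worth roughly 0.0351 to 0.0384 FPKM there. For the same reason the log2 change of YUC9 depends on the pseudocount, from 1.99 with 5 FPKM added to 5.52 with 0.1 FPKM added, with all settings past the threshold.

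YUC2 read 10.92, 10.43 and 11.75 FPKM in shaded WT, against 2.53, 3.06 and 2.96 FPKM in white-light WT. It was already well detected before shade, and the ratio of the means was 3.87 (log2 change 1.65, adjusted p = 2.21e-09). YUC5 read 2.11, 1.55 and 2.35 FPKM in shaded WT, against 0.3, 0.15 and 0.29 FPKM in white-light WT. Its groups did not overlap, and it rose by 1.26 (SE 0.176, adjusted p = 1.93e-05), or by 0.42 with 5 FPKM added and 2.61 with 0.1 FPKM added. YUC3, below the filter, read 1.09, 1.33 and 2.11 FPKM in shaded WT, against 0.44, 0.53 and 0.29 FPKM in white-light WT. All 3 shaded libraries were higher, and in a fit with no filter (26975 genes) YUC3 rose by 0.80 (SE 0.146, adjusted p = 0.000557).

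YUC6 was the YUC gene that went the other way. It read 1.28, 1.8 and 1.11 FPKM in shaded WT, against 3.28, 2.75 and 3.4 FPKM in white-light WT. The groups did not overlap, and YUC6 fell by 0.80 on the log2 scale (SE 0.151, adjusted p = 0.000513). YUC4 read 0.25, 0.39 and 0.27 FPKM in shaded WT, against 0.46, 0.2 and 0.56 FPKM in white-light WT, and YUC1 read 0.04, 0.27 and 0.11 FPKM in shaded WT, against 0.31, 0.07 and 0.13 FPKM in white-light WT. Both overlapped between the groups, and neither was called in any comparison of the fit with no filter.

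**Figure D2:**
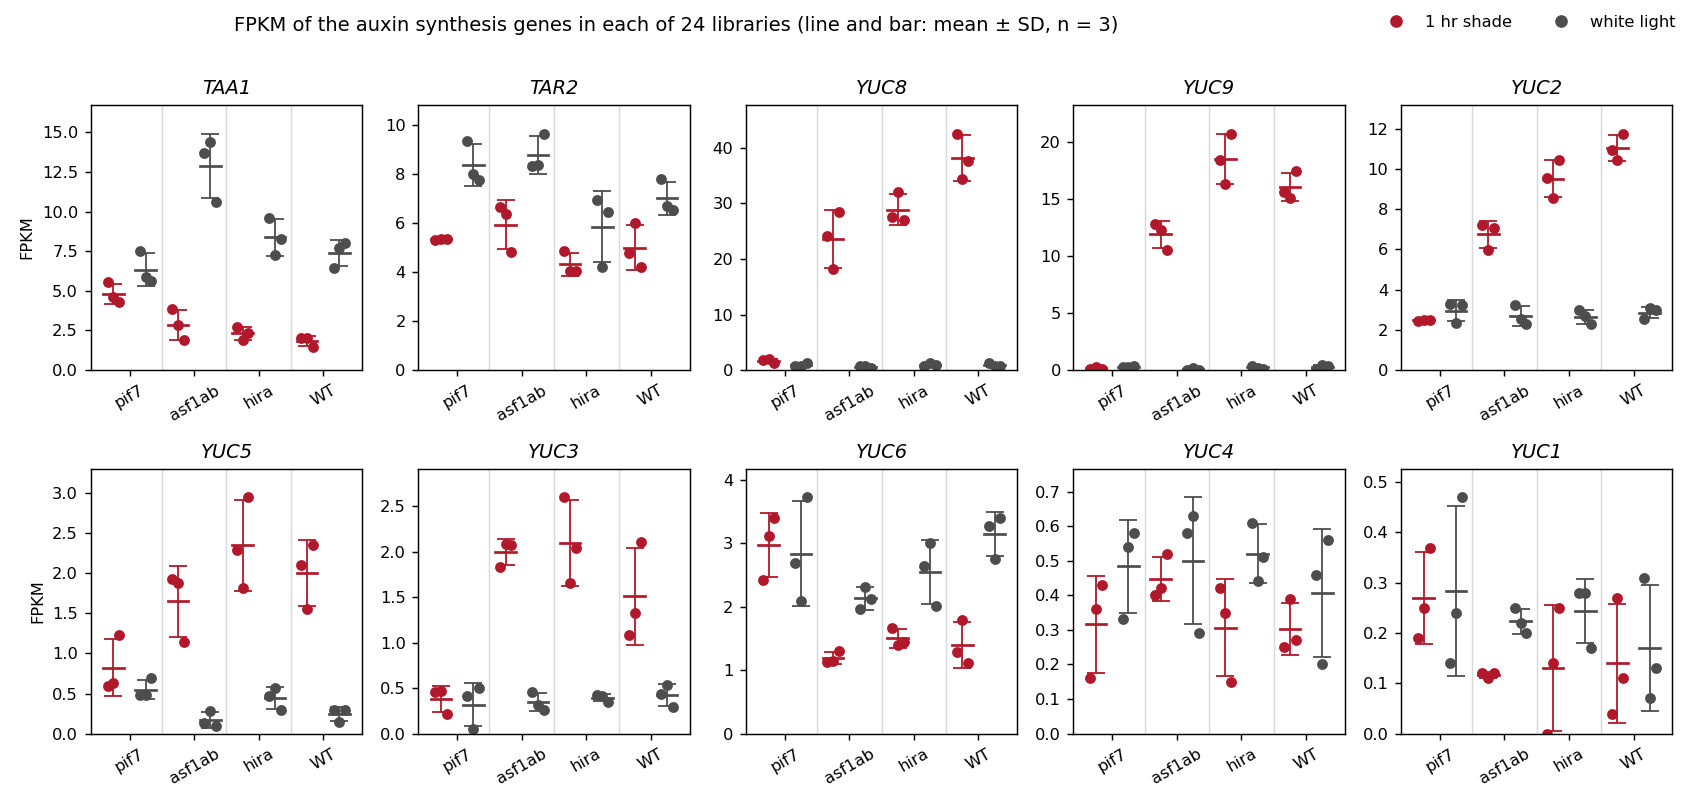
FPKM of each of the 10 genes in all 24 libraries (points), with the mean (line) and SD (bar, n = 3), for shade (red) and white light (grey) in pif7, asf1ab, hira and WT. YUC8, YUC9, YUC2, YUC5 and YUC3 are high in shaded WT, asf1ab and hira and low in shaded pif7, and TAA1 and YUC6 show the opposite order. Each panel has its own vertical scale from 0.

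The make-up of the YUC transcripts differed along with their amount. The summed FPKM of the 8 YUC genes was 73.9, 65.3 and 72.9 in shaded WT, against 8.66, 7.98 and 8.65 in white-light WT. YUC8 made up 54.0% ± 3.18 of the sum in shaded WT and 10.8% ± 3.29 in white-light WT, and YUC9 made up 22.8% ± 1.47 in shaded WT and 3.42% ± 2.25 in white-light WT (SD, n = 3 each). YUC6 went the other way, with 2.0% ± 0.66 in shaded WT and 37.2% ± 2.49 in white-light WT, and YUC2 had 15.6% ± 0.737 in shaded WT and 33.9% ± 4.57 in white-light WT although its own level was higher in shade. The order of levels in shaded WT was thus YUC8, YUC9 and YUC2, all further apart than their spread, then YUC5, YUC3 and YUC6, whose libraries overlapped one another. In white-light WT, YUC6 and YUC2 led with overlapping libraries, YUC8 followed, and the rest lay at or below 0.56 FPKM.

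The summed FPKM of TAA1 and TAR2 was 6.8, 8.03 and 5.7 in shaded WT, against 14.3, 14.4 and 14.5 in white-light WT. The YUC sum was 10.6 ± 2.34 times that of the aminotransferase genes in shaded WT and 0.585 ± 0.0283 times in white-light WT (SD, n = 3 each). In shaded pif7 this ratio was 0.901 ± 0.129, in white-light pif7 0.595 ± 0.188. It was 5.65 ± 1.72 in shaded asf1ab and 0.309 ± 0.03 in white-light asf1ab, and 9.67 ± 1.25 in shaded hira and 0.575 ± 0.172 in white-light hira. These sums and ratios carry no test.

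**Figure D3:**
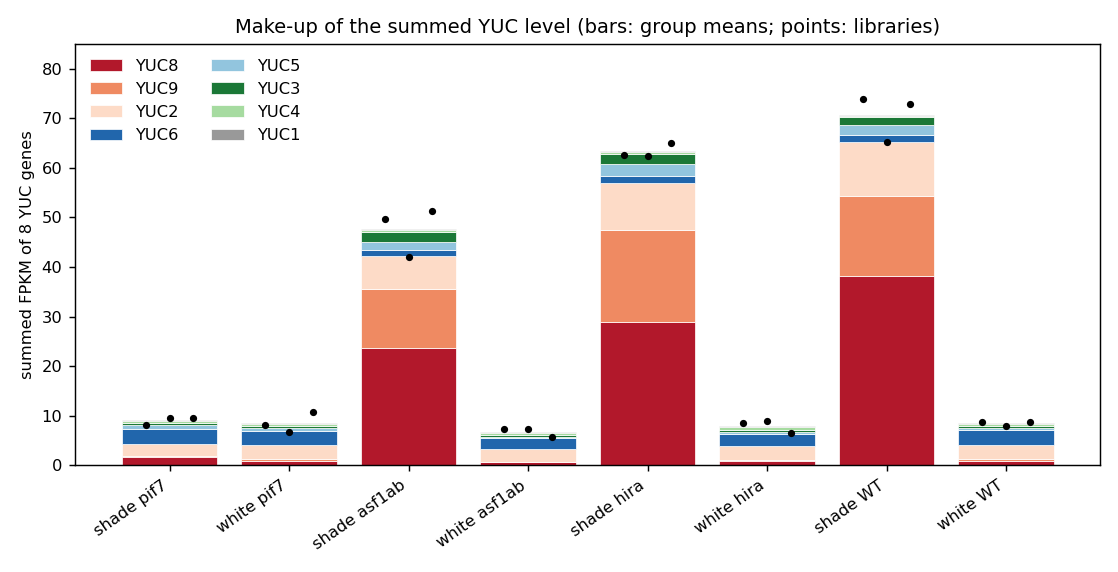
Summed FPKM of the 8 YUC genes, stacked by gene as group means (bars), with the sum in each library (points). The sum was 65.3 to 73.9 in shaded WT, 62.4 to 65.1 in shaded hira and 42.1 to 51.3 in shaded asf1ab, and it stayed at or below 10.8 in shaded pif7 and in all 4 white-light groups.

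The second question was how the shade response of these genes differed in pif7. In pif7 itself, 2 of the 7 tested genes were called for shade, against 43.5% of all tested genes, with 1 higher and 1 lower, against 29.9% and 13.6%. The shaded and white-light libraries did not overlap for 3 of the 10 genes (TAA1, TAR2 and YUC8), against 52.3% of all tested genes. The difference between the responses of pif7 and WT was called for 6 of the 7 genes, against 6.1% of all tested genes, with 2 higher and 4 lower, against 3.13% and 2.98%. Of the 4 lower genes, YUC5, YUC8 and YUC9 had entered the test only through shaded groups, so this count is partly set by the filter. YUC8, YUC9, YUC2 and YUC5 responded less in pif7, and the differences for TAA1 and YUC6, which fell with shade in WT, were positive. The median change of all tested genes was 0.119 for shade in pif7 and 0.106 for the difference in response. The medians of the 7 tested members were -0.136 and -1.04. The differences in response of YUC8, YUC9, YUC2 and TAA1 were called under every alternative run, median-of-ratios and quantile scaling among them. Those of YUC5 and YUC6 were lost under some alternatives, given below. Beyond these fits, the part of the shift over all genes in the members' values was not tested.

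YUC8 read 1.75, 2.0 and 1.32 FPKM in shaded pif7, against 0.64, 0.75 and 1.3 FPKM in white-light pif7. The lowest shaded library was just above the highest white-light one, and YUC8 rose by 0.51 (SE 0.173, adjusted p = 0.0226). That rise was not called after median-of-ratios scaling (0.43, adjusted p = 0.0579), with 5 FPKM added (0.18, adjusted p = 0.155), in a fit of the pif7 libraries alone (adjusted p = 0.0584), or without shaded or white-light pif7 replicate 1 or 2 (adjusted p = 0.0643 to 0.102), in a range of 0.00705 to 0.155 over all alternatives. YUC8 in shaded pif7 stood at 4.42% of its mean in shaded WT.

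YUC9 read 0.13, 0.24 and 0.1 FPKM in shaded pif7, against 0.24, 0.24 and 0.33 FPKM in white-light pif7. The values amount to a few reads in each library, and the mean in shaded pif7 was 0.975% of that in shaded WT. YUC2 read 2.44, 2.48 and 2.51 FPKM in shaded pif7, against 3.27, 2.34 and 3.23 FPKM in white-light pif7. The groups overlapped, and the response of YUC2 was lower in pif7 than in WT by a log2 difference of -1.82 (SE 0.163, adjusted p = 5.18e-07). The 3 shaded pif7 values of YUC2 all lay below the lowest white-light WT value of 2.53 FPKM.

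YUC5 read 0.6, 0.63 and 1.23 FPKM in shaded pif7, against 0.48, 0.48 and 0.69 FPKM in white-light pif7. The groups overlapped, with replicate 3 highest in both, and the response was lower than in WT by a log2 difference of -1.04 (SE 0.249, adjusted p = 0.0194). That call was lost without shaded WT replicate 3 (adjusted p = 0.0515) or shaded pif7 replicate 1 (0.0616), in a range of 0.0104 to 0.0616. YUC3 read 0.46, 0.47 and 0.22 FPKM in shaded pif7, against 0.41, 0.05 and 0.5 FPKM in white-light pif7. In the fit with no filter its difference in response from WT was -0.73 (SE 0.207, adjusted p = 0.0587), and its level in shaded pif7 was lower than in shaded WT (-0.84, adjusted p = 0.00132).

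TAA1 read 5.53, 4.6 and 4.29 FPKM in shaded pif7, against 7.52, 5.86 and 5.6 FPKM in white-light pif7. The shaded libraries lay below the white-light ones, and the change of -0.33 (SE 0.167, adjusted p = 0.115) was not called, except after median-of-ratios scaling (-0.45, adjusted p = 0.0408), in a range of 0.0408 to 0.374. The response differed from that of WT by 1.23 (SE 0.236, adjusted p = 0.00411). TAR2 read 5.29, 5.36 and 5.36 FPKM in shaded pif7, against 9.33, 8.0 and 7.74 FPKM in white-light pif7. TAR2 fell by 0.56 there (SE 0.144, adjusted p = 0.00436), under every alternative run, and was the 1 tested gene whose response was not called as different from WT.

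YUC6 read 2.42, 3.11 and 3.4 FPKM in shaded pif7, against 2.69, 2.09 and 3.73 FPKM in white-light pif7. The groups overlapped, and the response differed from that of WT by 0.86 (SE 0.214, adjusted p = 0.0235). This was lost in a fit of these 4 groups alone (adjusted p = 0.0553) and without shaded WT replicate 1 or 3, white-light WT replicate 1, shaded pif7 replicate 2 or 3 or white-light pif7 replicate 1 or 2 (0.0504 to 0.0696), in a range of 0.00428 to 0.0696. YUC4 and YUC1 overlapped between shaded and white-light pif7, at 0.16 to 0.58 and 0.14 to 0.47 FPKM.

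Set against WT in the same light, the called differences of pif7 were those in shade. In shade, 6 of the 7 genes were called between pif7 and WT, against 16.5% of all tested genes, with 2 higher and 4 lower in pif7, against 10.2% and 6.31%. This count too is partly set by the filter, since YUC5, YUC8 and YUC9 are among the 4 lower. The libraries did not overlap for 7 of the 10 genes, against 43.6% of all tested genes, namely the 6 called and YUC3. TAA1 was higher by 1.03 (adjusted p = 0.000427) and YUC6 by 0.73 (adjusted p = 0.00351). YUC2 was lower by a log2 difference of -1.79, YUC8 by -3.87, YUC9 by -3.88 and YUC5 by -0.73, and the YUC5 call was lost without shaded pif7 replicate 1 (-0.65, adjusted p = 0.0537, in a range of 0.006 to 0.0537). In white light limma called 0 of the 7, and 0 were below an unadjusted p of 0.05, against 0.397% of all tested genes called (0.11% higher, 0.288% lower). YUC5 was the 1 gene of 10 without overlap there, against 11.5% of all tested genes, at 0.48, 0.48 and 0.69 FPKM in white-light pif7 and 0.3, 0.15 and 0.29 FPKM in white-light WT. Its white-light difference of 0.31 (SE 0.176, adjusted p = 0.687) also enters its difference in response. The white-light YUC sums of 8.2, 6.73 and 10.8 FPKM in pif7 enclosed those of WT. Summed FPKM of 4 shoot markers was 15100 to 16900 in shaded pif7 and 22800 to 25200 in shaded WT, and its part in these differences was not tested.

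**Figure D4:**
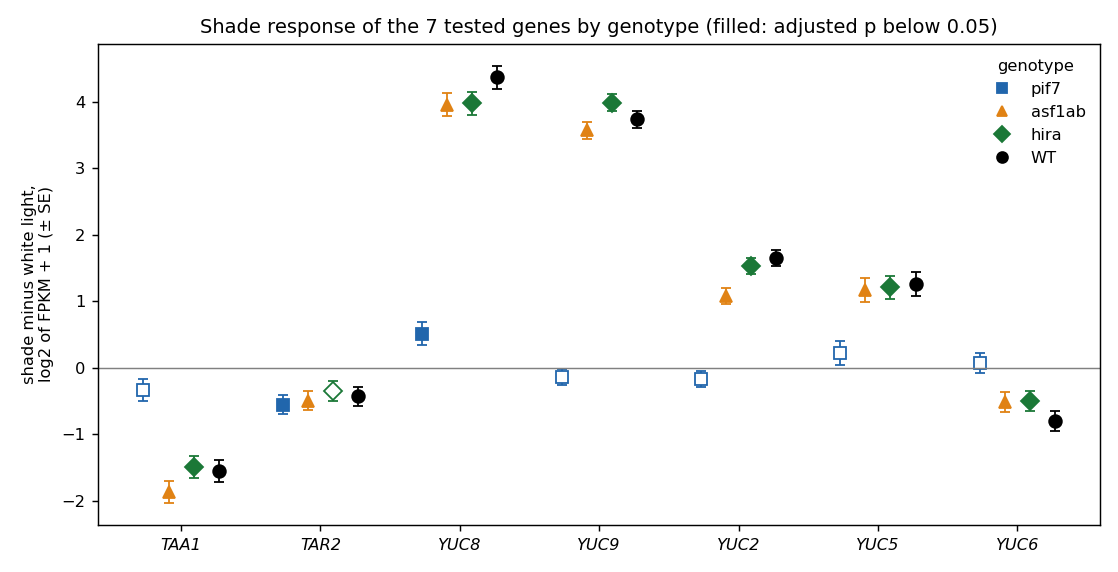
Shade minus white light in log2(FPKM + 1), with SE, for the 7 tested genes in pif7, asf1ab, hira and WT, with filled symbols where the adjusted p was below 0.05. WT, asf1ab and hira have the same sign in each gene, from -1.87 for TAA1 in asf1ab to 4.37 for YUC8 in WT, whereas pif7 lies within 0.56 of 0 for all 7.

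The third question was how these genes behaved in the histone chaperone mutants. In asf1ab all 7 tested genes were called for shade, against 31.1% of all tested genes, with 4 higher and 3 lower, against 18.8% and 12.3%. In hira 6 were called, against 35.6% of all tested genes, with 4 higher and 2 lower, against 26% and 9.55%. In both mutants the 4 higher genes include YUC5, YUC8 and YUC9, which had entered the test only through shaded groups. Shaded and white-light libraries did not overlap for 9 of the 10 genes in asf1ab, against 42.3% of all tested genes, and for 8 in hira, against 45.8%. Below the filter among these were YUC1 and YUC3 in asf1ab and YUC3 and YUC4 in hira. YUC1 in asf1ab rests on roughly 2.4 to 2.5 reads per library in shade and 4.4 to 4.8 in white light. The directions were those of WT in each case, and both mutants were set against the same WT libraries below. The median change of all tested genes was 0.137 for shade in hira.

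YUC8 read 24.13, 18.13 and 28.55 FPKM in shaded asf1ab and 27.54, 32.09 and 27.11 FPKM in shaded hira. All 6 libraries were below the 3 of shaded WT, whose lowest was 34.39 FPKM. White-light values were 0.7, 0.68 and 0.33 FPKM in asf1ab and 0.65, 1.27 and 0.82 FPKM in hira. YUC8 rose by 3.96 in asf1ab and by 3.98 in hira (SE 0.173 each, adjusted p = 2.34e-12 and 2.14e-12).

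YUC9 read 12.82, 12.31 and 10.57 FPKM in shaded asf1ab, against 0.04, 0.22 and 0 FPKM in white-light asf1ab, where the values are 0 to about 5.5 reads per library. In hira it read 18.39, 16.34 and 20.74 FPKM in shade, against 0.37, 0.18 and 0.12 FPKM in white light. Shaded asf1ab lay below shaded WT without overlap, and shaded hira overlapped it. YUC9 rose by 3.57 in asf1ab and by 3.99 in hira (SE 0.127 each, adjusted p = 1.21e-13 and 1.99e-14).

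YUC2 read 7.2, 5.97 and 7.06 FPKM in shaded asf1ab, against 3.24, 2.53 and 2.29 FPKM in white-light asf1ab. In hira it read 9.56, 8.57 and 10.42 FPKM in shade, against 2.98, 2.67 and 2.28 FPKM in white light. Both shaded mutants lay below shaded WT without overlap, though in hira the highest library was next to the lowest of WT. YUC2 rose by 1.08 in asf1ab (SE 0.115, adjusted p = 4.99e-07) and by 1.53 in hira (SE 0.115, adjusted p = 5.45e-09).

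YUC5 read 1.93, 1.88 and 1.14 FPKM in shaded asf1ab, against 0.13, 0.28 and 0.09 FPKM in white-light asf1ab. In hira it read 2.29, 1.82 and 2.95 FPKM in shade, against 0.47, 0.57 and 0.29 FPKM in white light. Shade and white light did not overlap in either mutant, and YUC5 rose by 1.17 in asf1ab and by 1.21 in hira (adjusted p = 3.36e-05 and 2.74e-05). YUC3 read 1.83, 2.09 and 2.07 FPKM in shaded asf1ab, against 0.46, 0.32 and 0.26 FPKM in white-light asf1ab, and in hira it read 2.6, 1.66 and 2.04 FPKM in shade, against 0.42, 0.41 and 0.35 FPKM in white light. In the fit with no filter YUC3 rose by 1.16 in asf1ab and by 1.14 in hira (SE 0.146 each, adjusted p = 8.51e-06 and 1.11e-05).

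TAA1 read 3.83, 2.82 and 1.92 FPKM in shaded asf1ab, against 13.72, 14.39 and 10.6 FPKM in white-light asf1ab. In hira it read 2.71, 1.88 and 2.33 FPKM in shade, against 9.59, 7.26 and 8.29 FPKM in white light. TAA1 fell by 1.87 in asf1ab and by 1.5 in hira (SE 0.167 each, adjusted p = 4.55e-08 and 9.6e-07). White-light asf1ab was the group with the highest TAA1 values of all 8, each library being above every library of the other groups.

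TAR2 read 6.64, 6.35 and 4.8 FPKM in shaded asf1ab, against 8.32, 8.35 and 9.65 FPKM in white-light asf1ab, and it fell by 0.50 (SE 0.144, adjusted p = 0.0108), a call lost without shaded asf1ab replicate 3 (adjusted p = 0.0689, in a range of 0.00278 to 0.0689). In hira it read 4.87, 4.03 and 4.04 FPKM in shade, against 6.92, 4.19 and 6.44 FPKM in white light. Replicate 2 of white-light hira, which is also high in ribosomal RNA, lay among the shaded libraries, and the change of -0.35 was not called (SE 0.144, adjusted p = 0.0674). It was called after median-of-ratios scaling (-0.48, adjusted p = 0.0174), after quantile scaling (-0.43, adjusted p = 0.0434), without that library (-0.53, adjusted p = 0.00495) and without both libraries high in ribosomal RNA (-0.49, adjusted p = 0.0489), in a range of 0.00495 to 0.277.

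YUC6 read 1.13, 1.15 and 1.31 FPKM in shaded asf1ab, against 1.96, 2.32 and 2.12 FPKM in white-light asf1ab. In hira it read 1.67, 1.4 and 1.44 FPKM in shade, against 2.65, 3.0 and 2.01 FPKM in white light. YUC6 fell by 0.51 in asf1ab (SE 0.151, adjusted p = 0.0136), a call lost without white-light asf1ab replicate 2 (adjusted p = 0.0509, in a range of 0.00617 to 0.0509). It fell by 0.50 in hira (adjusted p = 0.0152), which was not called without shaded hira replicate 2 (adjusted p = 0.0516), without white-light hira replicate 2 (0.0758) or without both white-light hira libraries high in ribosomal RNA (-0.27, adjusted p = 0.42), in a range of 0.00368 to 0.42. YUC4 read 0.4 to 0.52 FPKM in shaded asf1ab, 0.29 to 0.63 in white-light asf1ab, 0.15 to 0.42 in shaded hira and 0.44 to 0.61 in white-light hira. YUC1 read at most 0.28 FPKM in the libraries of both mutants and was at 0 in shaded hira replicate 1.

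The test of the difference in shade response itself called 0 of the 7 genes in either mutant. For asf1ab minus WT, limma called 0.46% of all tested genes (0.173% higher, 0.288% lower), and 1 of the 7 was below an unadjusted p of 0.05. That gene was YUC2, with a difference of -0.57 (SE 0.163, unadjusted p = 0.00237, adjusted p = 0.161), which was called with 5 FPKM added (-0.42, adjusted p = 0.036, in a range of 0.036 to 0.369). For hira minus WT, limma called 1.29% of all tested genes (0.607% higher, 0.685% lower), and 0 of the 7 were below an unadjusted p of 0.05. The difference for YUC8 was -0.41 ± 0.244 in asf1ab and -0.39 ± 0.244 in hira (SE, adjusted p = 0.679 and 0.406). A difference in response that misses the threshold does not show that the mutants responded like WT.

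Set against WT within shade, 3 of the 7 genes were called in asf1ab, against 25% of all tested genes, with 0 higher and 3 lower, against 9.13% and 15.8%. Of the 3 called, YUC8 and YUC9 had entered the test only through shaded groups. The libraries did not overlap for 4 of the 10 genes, against 42.1% of all tested genes, namely the 3 called and YUC4, which was higher in asf1ab. YUC2 stood at 61.1% of its mean in shaded WT (-0.64, SE 0.115, adjusted p = 0.000452), and this was called under every alternative run. YUC8 stood at 61.7% (-0.69, SE 0.173, adjusted p = 0.0063), a call lost with 0.1 FPKM added (adjusted p = 0.0748) and without shaded asf1ab replicate 2 (-0.52, adjusted p = 0.0507), in a range of 0.00022 to 0.0748. YUC9 stood at 74.0% (-0.41, SE 0.127, adjusted p = 0.0241). That call was lost after quantile scaling (adjusted p = 0.0573), with 0.1 FPKM added (0.467), with a mean of at least 5 FPKM required (0.0929), and without shaded WT replicate 1 or 3 or shaded asf1ab replicate 3 (0.0531 to 0.108), in a range of 0.000923 to 0.467. TAA1 had a mean of 2.86 FPKM in asf1ab and 1.85 FPKM in WT under shade, with overlapping libraries (0.41, SE 0.167, adjusted p = 0.0769). It was called as higher after quantile scaling (0.51, adjusted p = 0.0385) and without shaded asf1ab replicate 3 (0.60, adjusted p = 0.0127), in a range of 0.0127 to 0.364.

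In shade, limma called 0 of the 7 as different between hira and WT, against 11.5% of all tested genes (4.96% higher, 6.59% lower), and 1 was below an unadjusted p of 0.05. It was YUC8, at 75.6% of its mean in shaded WT (-0.39, SE 0.173, unadjusted p = 0.0361, adjusted p = 0.149). YUC8 and YUC2 were the 2 genes of 10 without overlap, against 40% of all tested genes. YUC8 was called with 5 FPKM added (-0.35, adjusted p = 0.0318) and in a fit of the hira and WT libraries alone (-0.39, adjusted p = 0.0409), in a range of 0.0318 to 0.386. The summed YUC level was 49.6, 42.1 and 51.3 FPKM in shaded asf1ab and 62.5, 62.4 and 65.1 FPKM in shaded hira, against 73.9, 65.3 and 72.9 FPKM in shaded WT. Neither mutant's sums overlapped those of WT, though the highest of hira, 65.1, was next to the lowest of WT, 65.3. The sums were not tested.

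In white light, 1 of the 7 genes was called between asf1ab and WT, against 22.1% of all tested genes, with 1 higher and 0 lower, against 6.26% and 15.8%. The libraries did not overlap for 3 of the 10 genes, against 35% of all tested genes. The called gene was TAA1, which averaged 12.9 FPKM in white-light asf1ab and 7.39 in white-light WT (0.72, SE 0.167, adjusted p = 0.00418), under every alternative run. Beside it, summed FPKM of the seed markers was 35.3 to 129 in white-light asf1ab and 0.85 to 3.21 in white-light WT, that of the 4 shoot markers was 26300 to 29800 in asf1ab and 22100 to 23700 in WT, and that of the root markers was at most 45.7 in asf1ab and at least 56.2 in WT. In white-light hira the shoot sum was 24600 to 31400 and the root sum 40.2 to 49.8. In white-light pif7 these sums were 23000 to 30100 and 32.9 to 47.7. TAA1 was not called against WT in white light in hira (0.16, adjusted p = 0.554) or in pif7 (-0.20, adjusted p = 0.825). The part of the marker tissues in the TAA1 difference of asf1ab was not tested. YUC6 averaged 2.13 FPKM in white-light asf1ab and 3.14 in white-light WT without overlap (-0.40, SE 0.151, adjusted p = 0.0639), and was called without white-light pif7 replicate 2 (adjusted p = 0.0472) or 3 (0.0362), libraries that enter only the shared estimate of the spread, in a range of 0.0362 to 0.167. Between hira and WT in white light, limma called 0 of the 7 and 0 were below an unadjusted p of 0.05, against 11.6% of all tested genes (2.61% higher, 9.03% lower), and the libraries did not overlap for 0 of the 10 genes, against 24.2%. The median difference of all tested genes was -0.117 there.

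The genes around the auxin pathway were counted by list. Of 11 genes of tryptophan synthesis, which supply the substrate of TAA1, 11 were tested and 1 rose and 0 fell with shade in WT, against 14.9% and 11.4% of all tested genes (2 below an unadjusted p of 0.05), with a median change of 0.0453 beside 0.0082 over all tested genes. The 1 gene was PAI2, a phosphoribosylanthranilate isomerase with near-identical copies, at 14.24, 9.21 and 11.46 FPKM in shaded WT, against 5.18, 5.9 and 10.69 FPKM in white-light WT (0.65, SE 0.225, adjusted p = 0.0375). The groups overlapped, and the call was lost with no filter (adjusted p = 0.0573), in a fit of the WT libraries alone (0.133), without shaded WT replicate 1 (0.167) or 3 (0.0814) and without white-light WT replicate 1 (0.179) or 2 (0.142), in a range of 0.00297 to 0.179. In asf1ab 0 of these 11 rose and 2 fell with shade, against 18.8% and 12.3% of all tested genes. In hira 1 rose and 1 fell, against 26% and 9.55%, and in pif7 1 rose and 2 fell, against 29.9% and 13.6%.

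Of 9 genes of other routes from tryptophan, 8 were tested, and 3 rose and 3 fell with shade in WT, against 14.9% and 11.4% of all tested genes. The 3 with the largest changes were CYP79B2, which makes indole-3-acetaldoxime (-0.78, SE 0.284, adjusted p = 0.0474), and the nitrilase genes NIT1 (0.59, SE 0.184, adjusted p = 0.023) and NIT3 (-0.57, SE 0.173, adjusted p = 0.0183), which are close copies whose reads may be split between them. All 3 calls were lost in a fit of the WT libraries alone (adjusted p = 0.123, 0.115 and 0.0688), in ranges of 0.0235 to 0.283 for CYP79B2, 0.00412 to 0.157 for NIT1 and 0.00862 to 0.115 for NIT3. The CYP79B2 call was lost in 18 of 34 alternatives, and its change was -0.42 without white-light WT replicate 3 (adjusted p = 0.283). The NIT1 call was also lost without shaded WT replicate 1 or 3 and without white-light WT replicate 1, where its change was 0.36 (adjusted p = 0.157), and the NIT3 call without shaded WT replicate 1 or white-light WT replicate 2 or 3. The difference in shade response was called for CYP79B3, which acts at the same step as CYP79B2, in pif7 (-0.93, SE 0.189, adjusted p = 0.00686) and in hira (-0.83, SE 0.189, adjusted p = 0.0353). CYP79B3 read 26.37, 28.74 and 30.57 FPKM in shaded pif7 and 26.62, 33.49 and 24.77 FPKM in shaded hira, against 64.43, 63.41 and 59.87 FPKM in shaded WT. In white light it read 40.11, 39.54 and 48.41 FPKM in pif7 and 44.42, 34.48 and 38.49 FPKM in hira, against 46.31, 39.56 and 61.13 FPKM in WT. In asf1ab the difference in response of CYP79B3 was not called, but its level was lower than in WT in both lights. It was lower by a log2 difference of -1.38 in shade (SE 0.134, adjusted p = 5.06e-07) and of -0.7 in white light (SE 0.134, adjusted p = 0.000886). The hira difference was not called in 12 alternatives, among them the fit without both white-light hira libraries high in ribosomal RNA (-0.81, adjusted p = 0.183) and those without any 1 of the WT libraries other than white-light replicate 3, shaded hira replicate 1 or 3 or white-light hira replicate 1, in a range of 0.00374 to 0.183. The response of AMI1, an amidase, was higher in pif7 than in WT by 0.45 (SE 0.12, adjusted p = 0.0318), which was not called after median-of-ratios scaling (0.33, adjusted p = 0.196), after quantile scaling (0.37, adjusted p = 0.129), in a fit of these 4 groups alone (0.0671) or without any 1 of the shaded pif7 libraries or of the WT libraries other than white-light replicate 3 (0.0548 to 0.0832), in a range of 0.0122 to 0.196.

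Of 11 genes of auxin inactivation and release, 10 were tested, and 1 rose and 2 fell with shade in WT, against 14.9% and 11.4% of all tested genes, and the 3 called of 10 are near the 26.4% called in either direction. IAMT1, which methylates auxin, read 5.59, 5.2 and 5.57 FPKM in shaded WT, against 1.62, 1.51 and 1.21 FPKM in white-light WT, and rose by 1.40 (SE 0.185, adjusted p = 9.83e-06). In pif7 it read 1.32, 1.14 and 1.39 FPKM in shade, against 1.98, 1.76 and 3.23 FPKM in white light, with all 3 shaded libraries below the white-light ones. The difference in response was -1.92 (SE 0.261, adjusted p = 0.000108), past the threshold under every alternative run. UGT74D1, a glucosyltransferase that acts on auxin, read 33.34, 31.38 and 36.87 FPKM in shaded WT, against 74.62, 72.58 and 74.48 FPKM in white-light WT (-1.11, SE 0.19, adjusted p = 0.000186). AT1G14130 read 9.33, 6.77 and 8.11 FPKM in shaded WT, against 16.92, 17.65 and 21.15 FPKM in white-light WT (-1.11, SE 0.34, adjusted p = 0.0197), and was not called without shaded WT replicate 2 (adjusted p = 0.0708) or white-light WT replicate 3 (0.0629), in a range of 0.00118 to 0.0708. The median change of the 10 genes was -0.032.

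**Figure D5:**
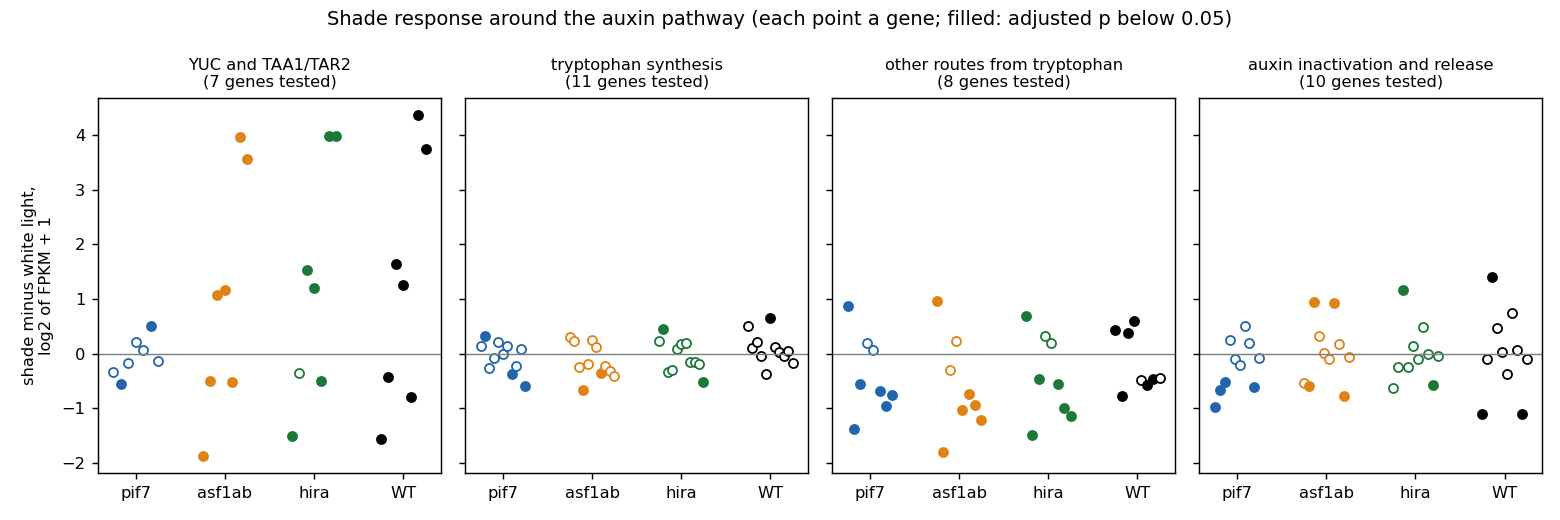
Shade minus white light in log2(FPKM + 1) for each tested gene of 4 lists (7, 11, 8 and 10 genes) in pif7, asf1ab, hira and WT, with filled points where the adjusted p was below 0.05. In WT, the 7 YUC and TAA1/TAR2 genes run from -1.56 to 4.37, and the genes of tryptophan synthesis and of other routes from tryptophan lie between -0.78 and 0.65.

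The genes whose levels followed each member most closely over the 24 libraries were found by Pearson's r of log2(FPKM + 1) among 18437 tested genes with a mean of at least 2 FPKM in some group. These correlations describe 24 libraries that fall mainly into shaded groups that responded and all others, and each pair was measured in the same libraries. The closest to YUC8 was AT3G21330, which averaged 2.01 FPKM in shaded pif7, 37.2 in shaded asf1ab, 49.9 in shaded hira and 56.7 in shaded WT (r = 0.997), followed by the auxin-response repressor genes IAA29 (r = 0.994) and IAA6 (r = 0.993). AT3G21330 was also close to YUC9 (r = 0.992), after the homeobox gene HAT2 (r = 0.994) and before AT1G67900 (r = 0.989). YUC2 was closest to AT3G50340 (r = 0.982), IAA6 (r = 0.977) and the potassium channel gene KAT1 (r = 0.976), and YUC5 to IAA2 (r = 0.952), AT4G24275 (r = 0.945) and AT5G12050 (r = 0.944). TAA1 was closest to CKX7, a cytokinin oxidase gene (r = 0.927), CYP71B7 (r = 0.904) and AT1G78170 (r = 0.9). TAR2 and YUC6 had looser partners, led by AK-HSDH II, an enzyme of aspartate-derived amino acid synthesis (r = 0.874), and AT3G22970 (r = 0.873). Among the members themselves, YUC8 and YUC9 had r = 0.984, YUC2 and YUC9 r = 0.975 and YUC2 and YUC8 r = 0.964, and TAA1 ran against YUC8 with r = -0.912.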

How the data were processed

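The values are FPKM as the authors deposited them, for 33020 loci in 24 libraries, each rounded to 2 decimals. Per the submitters' processing notes, FastQC, cutadapt, STAR, HTSeq and DESeq2 were used with the TAIR10 genome, and the sources used here do not tell how reads became FPKM. The table gives no read totals, and steps between low values put the depth at roughly 13100000 to 17300000 reads, a rough estimate since 28.8% to 36.8% of values came within 0.1 of a whole read. All 24 libraries were fitted as 8 group means with limma 3.58.1 (R 4.3.3, empirical Bayes with a trend) on log2(FPKM + 1), which understates the change of low genes, and p-values were adjusted by Benjamini-Hochberg over 19126 genes with a mean of at least 1 FPKM. The fit was run on simulated data for 1 of its 13 comparisons, shade against white light in WT. That noise was normal and independent between libraries and genes, so the run does not cover low counts or differences that a whole library shares. The 13 comparisons set shade against white light within each of the 4 genotypes, the response of each mutant against the WT response, and the level in each mutant against the WT level in either light. All 10 members are named, with the 3 called genes of largest change in WT from each further list, every called difference in response in those lists, and the 3 genes most like each called member. The members and lists were chosen with earlier results of these data known. Alternatives were median-of-ratios and quantile scaling, pseudocounts of 0.1 and 5, a minimum mean of 5 FPKM, no filter, a fit of only the groups compared, a replicate block, and each library left out. Added after seeing the data were a fit without 2 white-light hira libraries and a rescaling of nuclear loci. Replicate numbers were not used to pair samples. Gene positions and upstream sequence come from TAIR10.1, whose chromosome names match the build named, with no coordinates in the table.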

Additional observations from a re-analysis of the deposited data

Results flagged for a closer look

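The shade response of 6 of the 7 tested members differed between pif7 and WT by the test of the difference itself. That count is partly set by the filter, through which YUC5, YUC8 and YUC9 passed only by their shaded groups. The log2 difference was -3.88 for YUC9, -3.85 for YUC8, -1.82 for YUC2, -1.04 for YUC5, 0.86 for YUC6 and 1.23 for TAA1. Among the genes around the pathway, the same test gave -1.92 for IAMT1, -0.93 for CYP79B3 and 0.45 for AMI1 in pif7, and -0.83 for CYP79B3 in hira.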

How the results depend on the processing

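Over 79 log2 differences, 736 of 770 values under other settings and 1823 of 1896 values with 1 library left out kept their direction and their side of the threshold, and none reversed. Differences not called and within 1 SE of 0 were left out of the 79, so the lack of reversals is partly set by that choice. A library outside the groups compared enters only the shared estimate of the spread, so leaving it out cannot change the log2 value. Many of the 1896 values are of that kind. Low genes such as YUC1 and YUC4 rest on few reads. Members called came to 1 for shade in pif7, with 5 FPKM added and in a fit of only the groups compared, to 1 for the asf1ab difference in response with 5 FPKM added, to 1 for asf1ab in shade with 0.1 FPKM added, and to 1 for hira in shade with 5 FPKM added and in a fit of only the groups compared. Counts over all genes moved in a fit of only the groups compared to 45 from 88 (asf1ab difference in response), 56 from 247 (hira difference in response), 24 from 76 (pif7 in white light), 2324 from 4225 (asf1ab in white light), 183 from 2228 (hira in white light) and 3728 from 2209 (hira in shade). Without both white-light hira libraries high in ribosomal RNA they moved to 4042 from 6807 (shade in hira), 1847 from 1167 (pif7 difference in response), 162 (asf1ab difference), 66 (hira difference) and 295 (hira in white light), the last being 1421 after median-of-ratios scaling. With 1 library left out, members called were 1 to 2 for shade in pif7 and 1 to 2 for asf1ab in white light, and all genes called were 501 to 2633 (pif7 difference), 36 to 154 (asf1ab difference), 88 to 1772 (hira difference), 33 to 104 (pif7 in white light), 842 to 4250 (hira in white light), 1392 to 3759 (pif7 in shade) and 1074 to 2677 (hira in shade). The cause was not tested. The median correlation of deviations from group means over 84 same-numbered pairs of libraries was 0.0453, and 25 pairs were over 0.1. Of 28 pairs of groups, 1 had all 3 correlations over 0.1, white-light pif7 with white-light hira (0.143, 0.186 and 0.278). A median over all pairs cannot tell whether replicate numbers pair the libraries of some groups. With the replicate number as a block, members called in asf1ab against WT in shade came to 4, with TAA1 higher (0.41, adjusted p = 0.0383), and counts over all genes stayed within 1.5 times, for example 5209 for shade in WT.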
